A study of Mus musculus with 8 samples.

Results

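The Polycomb group is represented here by 10 genes, chosen by their symbols in the deposited table: Ezh1, Ezh2, Eed, Suz12, Jarid2, Bmi1, Ring1, Rnf2, Cbx7 and Cbx8. They are 10 of 47729 genes in the table, and all 10 had enough counts to be tested. The samples are sorted bone marrow cells of C57BL/6 mice with a BCR-ABL1-driven disease that resembles chronic myeloid leukaemia. Both groups carried the same oncogene, from a retrovirus that also encodes RFP, and differed in the pLKO.1-Venus lentivirus: a scrambled shRNA in 4 mice and an shRNA against Fubp1 in the other 4. Donors of the transduced marrow had received 5-fluorouracil, recipients were irradiated, and the sorted cells were lineage-negative, RFP-positive, Venus-positive and DAPI-negative. Each library is 1 mouse. Neither ages nor the sequence of the shRNA is given in these sources, and only 1 knockdown group was profiled.

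Polycomb proteins keep genes silent through marks on histones. In Polycomb repressive complex 2 (PRC2), EZH2 or its relative EZH1 methylates histone H3 at lysine 27, and needs the core subunits EED and SUZ12 to do so. In Polycomb repressive complex 1 (PRC1), RING1 or RNF2 ubiquitinates histone H2A, paired with a PCGF protein such as BMI1, and canonical complexes read the PRC2 mark through a CBX subunit. In blood, BMI1 is known for the self-renewal of stem cells, and EZH2 for its high level in dividing progenitors and for mutations in myeloid disease.

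Upstream sequences are shown for the genes on which the results below turn. Jarid2 is the only one of the 10 that passed the test, and both of its RefSeq start sites are shown. Eed is the next closest among the PRC2 genes. Suz12 is the only one of the 10 with the motif searched for. Phf19 is a PRC2 partner that rose, and the only called partner in the promoter table with the motif. All sequences come from the RefSeq promoter table on GRCm38.p6 and run 5′ to 3′ on the gene's strand. They hold up to 250 bases before the start site, less bases that lie in an exon. The positions are chr13:44730524-44730773 (plus strand) and chr13:44731021-44731270 (plus strand) for Jarid2, chr7:89980984-89981226 (minus strand) for Eed, chr11:79992856-79993105 (plus strand) for Suz12 and chr2:34914027-34914226 (minus strand) for Phf19. Capitals mark an E2F-type motif, of the kind bound by the E2F factors of the cell cycle.
Jarid2 start 1: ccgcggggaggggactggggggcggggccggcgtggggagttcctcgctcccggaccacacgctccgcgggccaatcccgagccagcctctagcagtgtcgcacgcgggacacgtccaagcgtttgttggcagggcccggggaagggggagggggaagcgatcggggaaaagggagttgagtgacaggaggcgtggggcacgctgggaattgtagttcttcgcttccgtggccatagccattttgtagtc
Jarid2 start 2: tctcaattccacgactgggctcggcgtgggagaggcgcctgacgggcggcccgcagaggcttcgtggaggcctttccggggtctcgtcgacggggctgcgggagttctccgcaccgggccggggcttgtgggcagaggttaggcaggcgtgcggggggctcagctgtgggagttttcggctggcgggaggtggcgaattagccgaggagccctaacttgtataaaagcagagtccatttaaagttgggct
Eed: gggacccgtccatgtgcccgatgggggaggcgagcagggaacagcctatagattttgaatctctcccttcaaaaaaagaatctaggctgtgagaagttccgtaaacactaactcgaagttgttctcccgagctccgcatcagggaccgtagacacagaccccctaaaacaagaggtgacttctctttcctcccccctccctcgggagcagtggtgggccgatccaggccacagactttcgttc
Suz12: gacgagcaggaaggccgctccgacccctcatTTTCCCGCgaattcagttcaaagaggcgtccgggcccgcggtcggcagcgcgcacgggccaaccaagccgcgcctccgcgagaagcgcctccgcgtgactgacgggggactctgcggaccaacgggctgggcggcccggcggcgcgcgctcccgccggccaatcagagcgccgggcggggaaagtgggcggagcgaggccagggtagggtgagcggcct
Phf19: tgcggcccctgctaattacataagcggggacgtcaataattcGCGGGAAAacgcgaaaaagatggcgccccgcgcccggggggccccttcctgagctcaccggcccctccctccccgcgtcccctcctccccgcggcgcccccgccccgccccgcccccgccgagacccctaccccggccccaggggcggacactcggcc

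The motifs searched were TTTCCCGC, TTTCGCGC and TTTGGCGC, on either strand, in the 250 bases before each start. One of them was present in 504 of 32851 such windows in the table, 1.53%. All 10 genes are in the table, and 1 of them, Suz12, holds a match, which begins 219 bases before its start. Of the 6 partners that passed the test below, 4 are in the table and 1, Phf19, holds a match, which begins 208 bases before its start. Phc1, Pcgf6 and Kdm2b hold none. The window of Phc1 lies wholly in exon bases, so no sequence outside exons was searched for it. The windows of Suz12 and Phf19 were also rich in G and C, with 73.6% and 75.2%, against a median of 52.4% over the table. Those of Jarid2 had 67.2% and 64.8%, and that of Eed 54.4%. A match describes letters in a window and does not show binding.

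Library totals ran from 22465303 to 44761356 counts. Fubp1 itself stood at 296, 284, 291 and 396 CPM (counts scaled by library size) in scrambled replicates 1 to 4, and at 281, 228, 220 and 239 CPM in knockdown replicates 1 to 4. Every knockdown library was below the lowest scrambled one, and the mean was 76.5% of the scrambled mean, but the difference did not pass edgeR's quasi-likelihood test (log2 fold change -0.39, SE 0.12, adjusted p = 0.0604, and 0.0145 to 0.136 over the alternatives). It did pass with DESeq2 (adjusted p = 0.0145), with edgeR and no filter (0.0365) and in the authors' deposited table (adjusted p = 0.0157). On the first principal component of all tested genes, knockdown replicate 3 lay among the scrambled libraries. The summed CPM of 5 early granulocyte markers ran from 35.4 to 329.4 in scrambled libraries and stood at 1961, 939, 85.8 and 3580 in knockdown replicates 1 to 4. Knockdown replicate 1 also held the most RNA of the collagen genes Col1a1 and Col1a2. Col1a1 stood there at 331 CPM, against at most 6.86 CPM elsewhere. Col1a2 was present in every library. It stood at 397 CPM in knockdown replicate 1, at 42.2 to 50.8 CPM in scrambled libraries and at most 41.3 CPM in the other knockdown libraries. Of the markers of cells that the sort removes, Ms4a1 (B cells) and Cd3e (T cells) were at 0 in all 8 libraries. The summed CPM of 5 B cell markers ran from 0.135 to 1.01 in scrambled and from 0.507 to 3.90 in knockdown libraries. That of 6 T and NK cell markers ran from 1.83 to 8.12 in scrambled libraries and stood at 27.8, 18.8, 2.03 and 86.6 in knockdown replicates 1 to 4, nearly all of it from Nkg7.

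Of the 10 Polycomb genes, 1 fell and 0 rose on knockdown at an adjusted p under 0.05, against 15.3% of all 13462 tested genes called in either direction of which 7.29% were called as lower and 8.02% as higher. Jarid2 was the gene that fell. This share of 1 in 10 is no higher than the background. The median log2 fold change of the 10 was -0.02, against 0.00 over all tested genes, and their median absolute change was 0.13, against 0.20. At an unadjusted p under 0.05 there were 3, Jarid2 and Eed lower and Cbx8 higher, beside 33.5% of all genes, 15.5% lower and 18.0% higher. DESeq2 called 2 of the 10, both lower, beside 23.1% of all genes, and limma-voom called 0, beside 13.1%. In the authors' deposited table, where 21.3% of genes had an adjusted p under 0.05, Jarid2 and Eed were below it as well. Values below are CPM after TMM scaling, in the order of replicates 1 to 4 of each group.

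**Figure D1:**
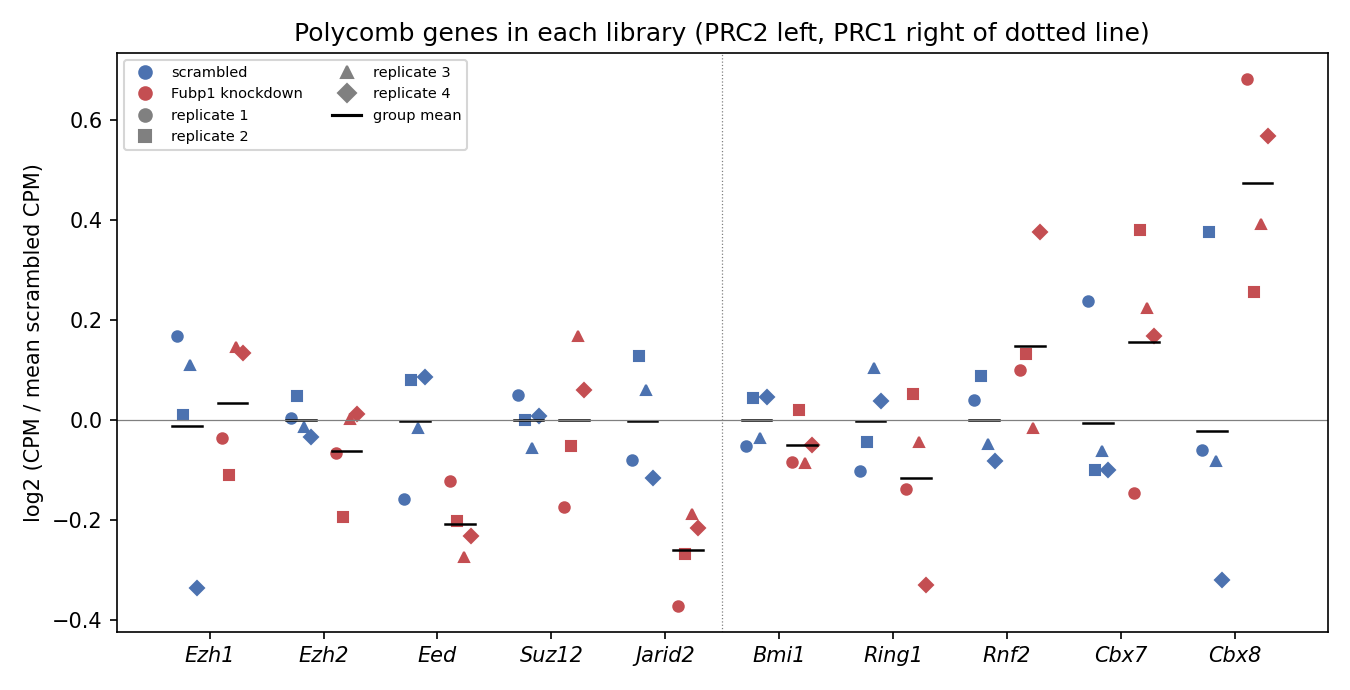
CPM of the 10 Polycomb genes in each of the 8 libraries, as log2 of the ratio to the gene's scrambled mean; colours are groups, symbols are replicates and short lines are group means of these log2 values. The scrambled and knockdown points overlap for 9 of the 10 genes, and for Jarid2 all 4 knockdown libraries lie below the scrambled ones.

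Among the PRC2 genes, the catalytic subunits stayed close between the groups. Ezh2, the main methyltransferase of dividing cells, stood at 259, 267, 256 and 252 CPM in scrambled libraries and at 247, 226, 259 and 261 CPM in knockdown libraries. The groups overlapped, with knockdown replicates 1 and 2 below the lowest scrambled library and the others inside the scrambled range. The log2 fold change was -0.06 with a 95% interval from -0.19 to 0.07 (edgeR adjusted p = 0.504), so the interval runs from 87.7% to 105% of the scrambled level. Ezh1, the relative with weaker catalytic activity that is known from resting cells, stood at 34.0, 30.4, 32.6 and 23.9 CPM and then at 29.5, 28.0, 33.4 and 33.2 CPM. Scrambled replicate 4 was its lowest library, and all knockdown values lay inside the scrambled range. The log2 fold change of Ezh1 was 0.04 with an interval from -0.23 to 0.30.

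The core subunits Suz12 and Eed differed from each other. Suz12, which holds the complex together, stood at 336, 325, 313 and 327 CPM in scrambled libraries and at 288, 314, 366 and 339 CPM in knockdown libraries. Its knockdown libraries lay on both sides of the scrambled ones, with replicate 1 the lowest of all 8 and replicate 3 the highest, and the log2 fold change was 0.01 with an interval from -0.16 to 0.17. Eed, which reads trimethylated lysine 27 and stimulates the enzyme, stood at 102, 120, 112 and 120 CPM and then at 104, 98.6, 93.8 and 96.6 CPM. In 3 of 4 knockdown libraries Eed was below every scrambled library, and knockdown replicate 1 lay just above the lowest of them. Its mean was 113 ± 8.80 CPM in scrambled and 98.3 ± 4.44 CPM in knockdown libraries (SD, n = 4 each), a log2 fold change of -0.21 (SE 0.07). This did not pass the edgeR test (adjusted p = 0.0717), but it did pass with DESeq2 (adjusted p = 0.0326) and in the authors' deposited table (adjusted p = 0.0349).

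Jarid2 fell. JARID2 is an accessory subunit that helps bring PRC2 to its sites and is itself methylated by the complex. The gene lies at positions 44729474 to 44921643 on chromosome 13, plus strand (GRCm38, GENCODE M21). By this annotation both RefSeq windows shown above lie inside the gene, and the bases before its outer start were not searched. It stood at 81.9, 94.6, 90.2 and 79.9 CPM in scrambled libraries and at 67.0, 71.9, 76.0 and 74.6 CPM in knockdown libraries. The groups did not overlap, which was true of 20.7% of all tested genes. The mean went from 86.7 ± 6.97 to 72.4 ± 3.99 CPM (SD, n = 4 each), 83.5% of the scrambled level. The log2 fold change was -0.26 (SE 0.07, 95% interval -0.43 to -0.09, edgeR adjusted p = 0.0446), and it stayed between -0.31 and -0.22 over the 15 alternatives. The call itself was held in 5 of these 15, with adjusted p from 0.0127 to 0.113. It was lost on leaving out any 1 library except scrambled replicate 4 or knockdown replicate 3. The authors' deposited table gives Jarid2 a log2 fold change of -0.26 with an adjusted p of 0.0136.

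None of the 5 PRC1 genes among the 10 passed the edgeR test (1 of 5 at an unadjusted p under 0.05, and 0 with DESeq2 and with limma-voom). Bmi1, a PCGF subunit of canonical PRC1, was the steadiest, at 45.6, 48.7, 46.1 and 48.7 CPM in scrambled and 44.6, 47.9, 44.5 and 45.6 CPM in knockdown libraries. Its log2 fold change was -0.05 with an interval from -0.18 to 0.08. Ring1, an E3 ligase subunit, ran from 34.5 to 39.9 CPM in scrambled and from 29.5 to 38.5 CPM in knockdown libraries. Knockdown replicate 4 was its lowest library, and the interval of its log2 fold change of -0.11 ran from -0.32 to 0.10. Rnf2, the other ligase subunit, ran from 28.2 to 31.8 CPM and then from 29.6 to 38.8 CPM. The same library, knockdown replicate 4, was the highest for Rnf2, and 3 of 4 knockdown libraries were above every scrambled one. The log2 fold change of Rnf2 was 0.15 with an interval from -0.06 to 0.37. Rnf2 overlaps Trmt1l on the opposite strand (mean 54.1 CPM), and whether the authors' counting used strand is not stated.

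The CBX subunits of the list, which bind methylated histone H3, were the least abundant members. Cbx7 stood at 17.4, 13.8, 14.1 and 13.8 CPM in scrambled and at 13.3, 19.2, 17.2 and 16.6 CPM in knockdown libraries. Scrambled replicate 1 and knockdown replicate 1 each went against the rest of their groups, and the log2 fold change was 0.17 with an interval from -0.14 to 0.47. Cbx7 overlaps Apobec3, which is on the opposite strand and had a mean of 263 CPM. Cbx8 stood at 3.66, 4.95, 3.61 and 3.06 CPM and then at 6.12, 4.55, 5.01 and 5.65 CPM, from 68 to 260 counts per library. In 3 of 4 knockdown libraries Cbx8 was above every scrambled library, and replicate 2 lay inside their range. The log2 fold change was 0.48 (SE 0.19, interval 0.04 to 0.92) and did not pass (edgeR adjusted p = 0.117, and 0.0735 in the authors' deposited table).

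Levels of different genes can be set side by side only per length, as CPM per kilobase of exon (RPKM), with exon lengths from GENCODE M21. In scrambled libraries the level was highest for Suz12, at 65.8 ± 1.96 RPKM, followed by Ezh2 at 38.7 ± 0.947 and Eed at 29.6 ± 2.30 RPKM (mean ± SD, n = 4). The PRC1 genes Bmi1 and Ring1 came next, at 11.9 ± 0.425 and 11.4 ± 0.718 RPKM. Jarid2 stood at 8.92 ± 0.717, Rnf2 at 7.25 ± 0.393, Ezh1 at 4.06 ± 0.597, Cbx7 at 2.27 ± 0.272 and Cbx8 at 1.04 ± 0.219 RPKM. Over all 8 libraries the ranges of Bmi1 and Ring1, of Ring1 and Jarid2, and of Jarid2 and Rnf2 overlapped, and no other neighbours in this order did. The core PRC2 subunits were therefore measured at higher RNA levels than the PRC1 members listed here.

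The balance between alternative subunits was compared as a ratio within each library. The log2 ratio of Ezh2 to Ezh1 counts was 3.11 ± 0.211 in scrambled and 3.00 ± 0.0499 in knockdown libraries (SD, n = 4 each), a difference of -0.11 (exact permutation test, two-sided, p = 0.457). The log2 ratio of Cbx7 to Cbx8 counts was 1.96 ± 0.347 and then 1.63 ± 0.401, a difference of -0.33 (exact permutation p = 0.257, and 0.457 adjusted over the 2 ratios). The smallest p that this test can give with 4 libraries a group is 0.0286. Neither balance differed beyond the spread between mice.

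Of all tested genes, those whose log2 CPM followed Jarid2 most closely over the 8 libraries were Shoc2 (Pearson r = 0.975), Ripply3 (0.974), Lrrc47 (0.971), Lonrf2 (0.967) and Dtwd1 (0.966). These are descriptions of 8 shared libraries, which also share the group difference. Ripply3 went from 5.58 to 0.616 CPM on average and Lonrf2 from 10.6 to 0.976 CPM, so both had far larger differences than Jarid2 itself.

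Genes that work with the 10 were taken from 3 lists: other PRC2 subunits, other canonical PRC1 subunits and variant PRC1 subunits. Of 26 such genes 25 were tested, and 4 rose and 2 fell, 24.0% of those tested beside the 15.3% of all genes. Before adjustment, 8 of these 25 had an edgeR p below 0.05, a share no higher than the 33.5% of all genes. DESeq2 called 6 as higher and 2 as lower, beside 23.1% of all genes. With limma-voom 4 were higher and 2 lower, beside 13.1%. The counts by list below are to be read beside the 8.02% of all genes that rose and the 7.29% that fell. Among canonical PRC1 partners 2 of 7 rose and 0 fell, with a median log2 fold change of 0.27. Among PRC2 partners 2 of 8 rose and 0 fell, with a median of 0.10. Among variant PRC1 genes 0 of 10 rose and 2 fell, with a median of -0.00.

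**Figure D2:**
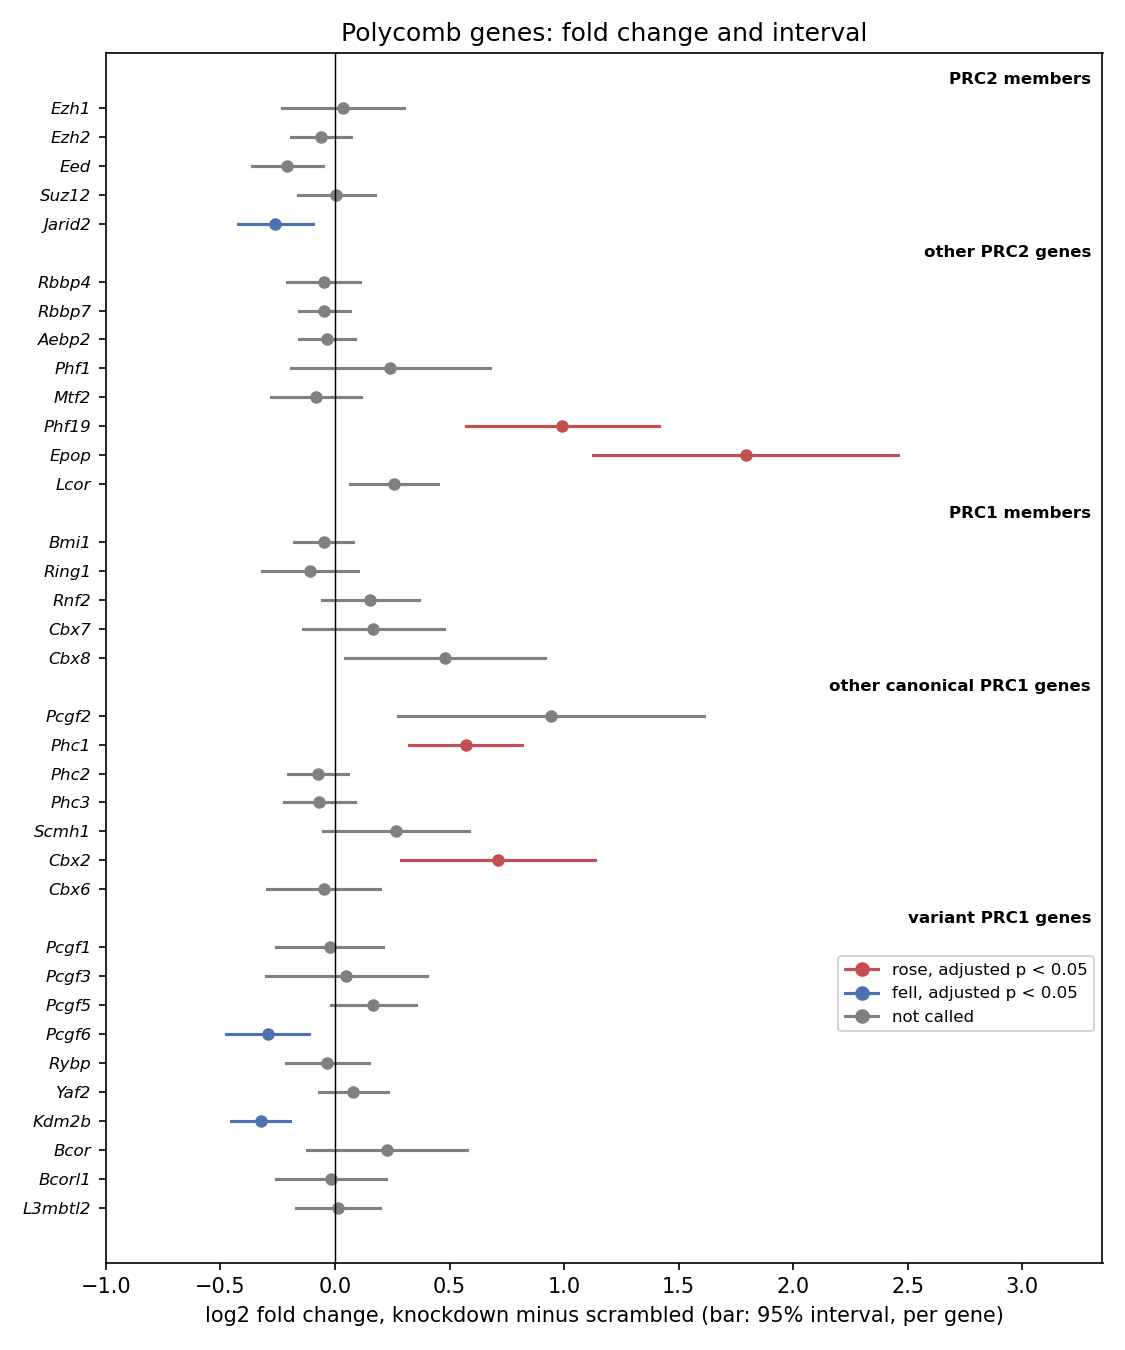
Log2 fold change (knockdown minus scrambled) of the 10 Polycomb genes and their 25 tested partners, by list; bars are the 95% interval of each gene from the edgeR fit, and colour marks genes that passed after adjustment over all tested genes. Among the 10 genes the intervals of Jarid2 and Eed lie wholly below 0 and that of Cbx8 wholly above it, and only Jarid2 is coloured.

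**Figure D3:**
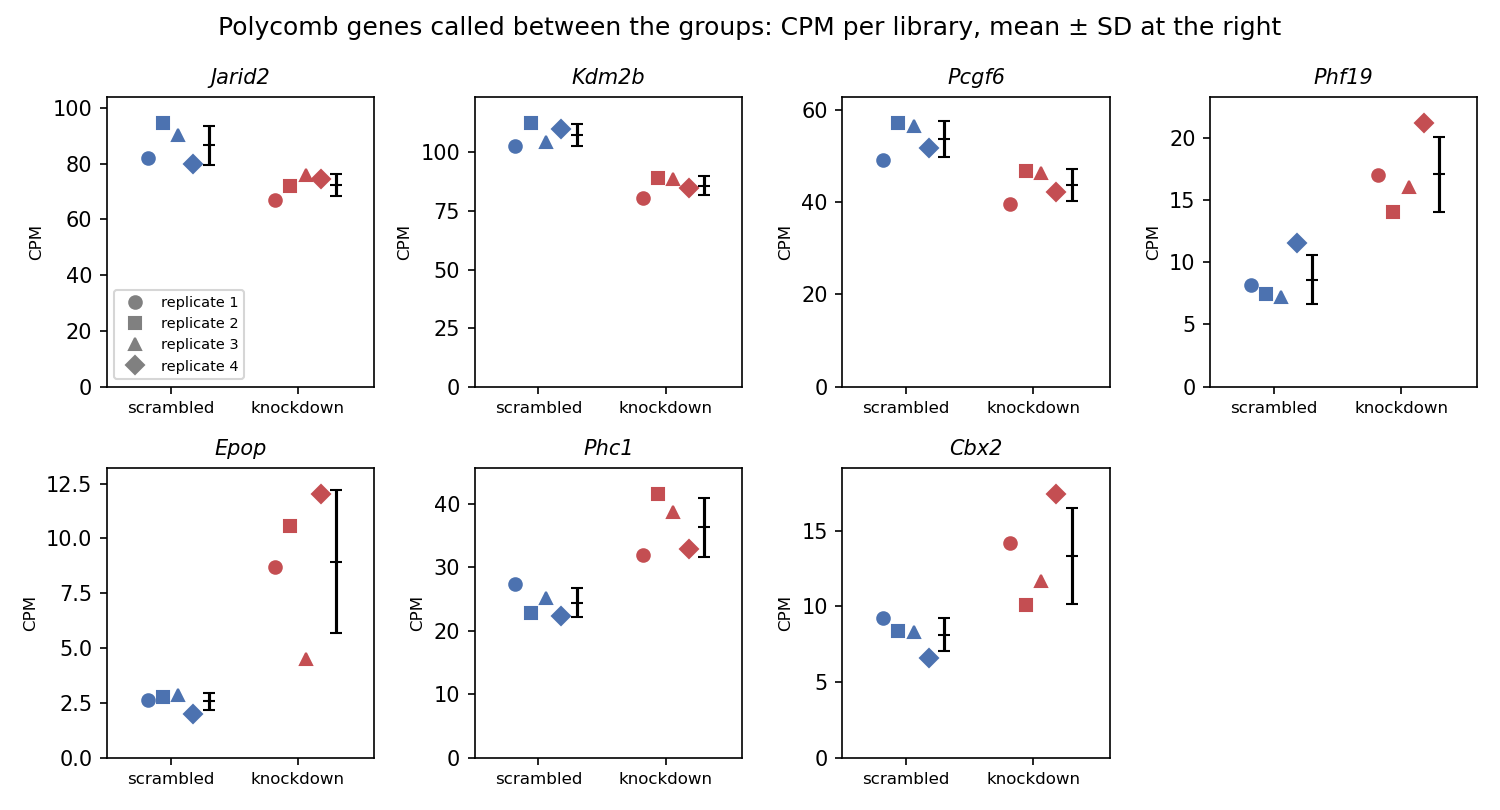
CPM by library of the Polycomb genes that passed the edgeR test, Jarid2 and 6 partners, with 1 panel per gene; points are libraries, symbols are replicates, and the bar at the right of each group is the mean ± SD over 4 libraries. In every panel the 4 knockdown libraries lie on 1 side of the 4 scrambled ones, above them for Phf19, Epop, Phc1 and Cbx2 and below them for Jarid2, Kdm2b and Pcgf6. The genes were picked by a test on these same libraries, so the separation adds no support. Over all tested genes, 20.7% had groups that did not overlap.

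Phf19 and Epop were the PRC2 partners that rose. PHF19 is a Polycomb-like protein that takes part in bringing PRC2 to chromatin. It stood at 8.18, 7.47, 7.21 and 11.5 CPM in scrambled and at 17.0, 14.03, 16.04 and 21.2 CPM in knockdown libraries. Every knockdown library was above the highest scrambled one, and the log2 fold change was 0.99 (SE 0.19, edgeR adjusted p = 0.0137, and 0.0510 without scrambled replicate 2). Epop, whose protein binds PRC2 and elongin, stood at 2.63, 2.80, 2.85 and 2.02 CPM and then at 8.70, 10.6, 4.502 and 12.02 CPM. Its log2 fold change of 1.79 (SE 0.29, edgeR adjusted p = 0.00952) was the largest among the called Polycomb genes, with knockdown replicate 3 the lowest of its group.

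Phc1 and Cbx2 were the canonical PRC1 partners that rose. PHC1 is a polyhomeotic subunit whose SAM domain polymerises. It stood at 27.4, 22.8, 25.1 and 22.4 CPM in scrambled and at 32.0, 41.5, 38.6 and 32.9 CPM in knockdown libraries (log2 fold change 0.57, SE 0.11, edgeR adjusted p = 0.0141, and 0.0613 without scrambled replicate 2). Cbx2, a CBX subunit that compacts chromatin, stood at 9.23, 8.39, 8.30 and 6.60 CPM and then at 14.2, 10.1, 11.7 and 17.4 CPM. Its log2 fold change was 0.71 (SE 0.19, adjusted p = 0.0366). The call on Cbx2 held in 2 of 8 fits that left out 1 library, those without knockdown replicate 2 or 3, with adjusted p up to 0.0957 in the others.

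Cbx2 and Cbx8 are neighbours on chromosome 11 (GRCm38). Cbx2 lies at 119022962 to 119031270 on the plus strand and Cbx8 at 119036305 to 119040969 on the minus strand. Both had higher mean CPM in knockdown libraries, and the difference passed the test for Cbx2 and not for Cbx8.

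Kdm2b and Pcgf6 were the variant PRC1 genes that fell. KDM2B brings a variant PRC1 to unmethylated CpG islands. It stood at 103, 113, 105 and 110 CPM in scrambled and at 80.7, 89.3, 88.5 and 84.9 CPM in knockdown libraries, with no overlap. The mean went from 107 ± 4.64 to 85.8 ± 3.90 CPM (SD, n = 4 each), and the log2 fold change of -0.32 (SE 0.06, edgeR adjusted p = 0.0118) held its call on leaving out any 1 library. Kdm2b overlaps Rnf34 on the opposite strand, which had a mean of 31.1 CPM. Pcgf6, the PCGF subunit of another variant complex, stood at 49.1, 57.2, 56.6 and 51.6 CPM and then at 39.6, 46.8, 46.2 and 42.2 CPM. Its log2 fold change was -0.29 (SE 0.08, adjusted p = 0.0406). That call held in 2 of 8 fits that left out 1 library, those without scrambled replicate 4 or knockdown replicate 3, with adjusted p up to 0.111 in the others.

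The lists of enzymes that act against Polycomb marks, and of genes that Polycomb is known to silence, are small, and their counts are to be read beside the shares over all genes: 15.3% called, 33.5% at an unadjusted p under 0.05 and 23.1% with DESeq2. Of 3 tested deubiquitinase genes for histone H2A, 0 passed the edgeR test (1 at an unadjusted p under 0.05, 1 with DESeq2, 0 with limma-voom), and Asxl2 was the nearest, with a log2 fold change of -0.17 (adjusted p = 0.0713). Of 8 opposing genes, such as the lysine 27 demethylases, 0 passed (4 at an unadjusted p under 0.05, 2 with DESeq2, 0 with limma-voom). Kdm6b, one of these demethylases, stood at 76.6, 61.0, 57.3 and 69.4 CPM and then at 82.8, 194, 180 and 60.3 CPM. It was highest in knockdown replicates 2 and 3 (log2 fold change 0.97, edgeR adjusted p = 0.104). Knockdown replicate 1 lay just above the scrambled range and replicate 4 inside it. The summed CPM of 7 immediate early genes was also highest in knockdown replicates 2 and 3, at 5673 and 6213 CPM. It was 1972 to 4144 CPM in the other 6 libraries, and its part in the Kdm6b values was not tested. Of 16 known target genes 8 had too few counts to be tested, and of the other 8, 0 passed (2 at an unadjusted p under 0.05, 1 with DESeq2, 0 with limma-voom). The log2 fold changes of the tested 8 had a median of 0.86, against 0.00 over all tested genes, and ran from -1.03 to 2.75. Those of Cdkn2a, Cdkn2b and Cdkn1a were below 0. The median leaves out the untested targets, and some tested ones had few counts as well. Hoxa7, Hoxa10 and Hoxb4 had scrambled means of 0.184, 0.462 and 0.369 CPM, with SEs of 1.14, 0.60 and 0.55.

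The target with the smallest p was Hoxa9, a homeobox gene of blood progenitors. It stood at 0.582, 2.28, 2.62 and 0.988 CPM in scrambled and at 14.05, 6.37, 1.21 and 6.15 CPM in knockdown libraries. Knockdown replicate 3 lay within the scrambled range and the other 3 above it, and the log2 fold change of 2.09 (SE 0.73) had an adjusted p of 0.0876 with edgeR, and 0.00627 to 0.336 over the alternatives. It passed with DESeq2 and without knockdown replicate 3, and in the authors' deposited table the adjusted p was 0.00758. The summed early granulocyte markers had the same low library, and so did the progenitor markers Cd34 and Meis1. Cd34 stood at 29.3, 23.6, 1.46 and 104 CPM in knockdown libraries and at 1.77 to 14.8 CPM in scrambled ones. Meis1 stood at 8.615, 8.383, 2.219 and 10.65 CPM, against 1.08 to 4.20 CPM in scrambled libraries. Kit and Gata2, the most abundant progenitor markers, had lower means on knockdown (143 to 78.6 and 153 to 116 CPM). The part of all these markers in the Hoxa9 values was not tested. Cdkn2a, the tumour suppressor locus that BMI1 is known to repress, stood at 27.3, 10.1, 10.5 and 10.6 CPM and then at 14.1, 6.50, 4.22 and 3.89 CPM. Its log2 fold change was -1.03 (edgeR adjusted p = 0.195), with scrambled replicate 1 far above the rest of its group. Over the alternatives it ran from -1.59 to -0.55, with adjusted p from 0.0442 to 0.455.

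The sorted cells differed in their makeup of RNA, and in bulk samples fewer cells of a type and less RNA per cell cannot be told apart. All 5 early granulocyte markers were higher at an unadjusted p under 0.05, and 0 passed the edgeR test after adjustment (5 with DESeq2, 0 with limma-voom). The median of their log2 fold changes was 3.38. Their sum was within the scrambled range of 35.4 to 329.4 CPM in knockdown replicate 3 alone, at 85.8 CPM, and their part in the values of the called Polycomb genes was not tested. The summed CPM of 6 monocyte and macrophage markers ran from 4.21 to 11.6 in scrambled libraries and stood at 87.7, 21.4, 9.19 and 123 in knockdown replicates 1 to 4. Of these 6, 3 were tested and 0 passed (3 at an unadjusted p under 0.05, 3 with DESeq2, 0 with limma-voom). Of 8 progenitor markers 6 were tested and 0 passed (1 at an unadjusted p under 0.05, 1 with DESeq2, 0 with limma-voom). The log2 fold changes of the tested progenitor markers ran from -0.86 to 2.39. The summed CPM of all 8 ran from 247.2 to 386.7 in scrambled and from 196.3 to 272.5 in knockdown libraries. Of 2 tested stromal and endothelial genes 1 rose, Pecam1, with a log2 fold change of 2.69 (edgeR adjusted p = 0.0123). Cdh5, of the same list, had too few counts to be tested, at 0 to 0.0277 CPM. Of 19 proliferation genes 0 rose and 2 fell (Mcm2 and Birc5), and their summed CPM ran from 9041 to 10650 in scrambled and from 8738 to 10880 in knockdown libraries. Of 10 erythroid genes 3 rose (Hbb-bs, Hbb-bt and Alas2) and 5 fell (Klf1, Gata1, Epor, Car2 and Ermap). Among megakaryocyte genes 2 of 5 tested rose, with sums of the list of 67.9 to 86.3 CPM in scrambled and 131 to 213 CPM in knockdown libraries. Most of each knockdown sum was Itga2b, whose mean went from 41.0 to 127 CPM. Gp1ba also rose, and Pf4, Gp9 and Vwf were not called. Over all tested genes 15.3% were called, 8.02% as higher and 7.29% as lower. The shares were 33.5% at an unadjusted p under 0.05 and 23.1% with DESeq2. The part of the progenitor, monocyte, megakaryocyte and erythroid genes, of Pecam1 and of Nkg7 in the Polycomb values was not tested.

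**Figure D4:**
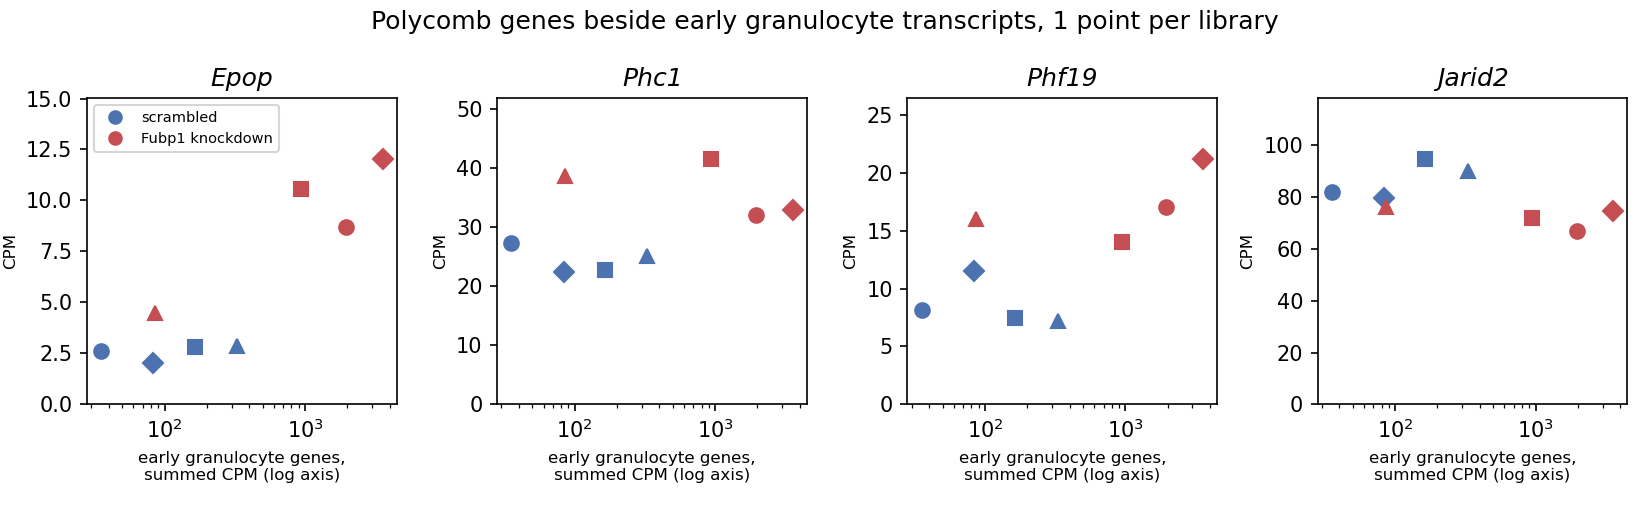
CPM of Epop, Phc1, Phf19 and Jarid2, on the vertical axis, against the summed CPM of the 5 early granulocyte markers, on a log horizontal axis; each point is a library, coloured by group. The knockdown library at 85.8 CPM of granulocyte markers, within the scrambled range of 35.4 to 329.4 CPM, is replicate 3; these 4 genes are among those called and their groups do not overlap, so its place on the vertical axis is no test of the part of these markers.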

How the data were processed

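RNA from 8 libraries was measured by stranded total RNA sequencing from 500 ng of input after ribosomal RNA depletion, per the labels' protocols. The authors deposited whole-number counts per gene, with no normalization, together with their own log2 fold changes, p-values, mean normalised signal per gene and test score (the Wald statistic), per the file headers. The last pair was not used. CASAVA 1.8 and DESeq2 1.18.1 were used, per the submitters' processing notes. The aligner, genome build, annotation and strand setting of the counting are not stated in the labels, so overlapping genes cannot be told apart. Exon lengths and positions were taken by gene ID from GENCODE M21, which held 13421 of the 13462 tested genes.

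Samples were grouped and numbered by their titles, and columns were matched by the number in the description. Where p-values are given, they measure the spread between 4 mice per group. Counts were filtered with filterByExpr, scaled by TMM (factors 0.965 to 1.03) and tested with edgeR 4.0.16 in R 4.3.3, by a robust quasi-likelihood F test, two-sided, adjusted by Benjamini-Hochberg over 13462 genes at 0.05. "Rose", "fell" and "called" refer to this test. Genes with an ID and no symbol (285 in the table) were kept. The within-library ratio of Cbx7 to Cbx8 used 0.5 added counts, and that of Ezh2 to Ezh1 used none. Both ratios were compared by an exact permutation test. The scripts were tested on simulated data. DESeq2 1.42.0, limma 3.58.1 (voom), RLE factors, library totals, no filter, a filter at 1 CPM in 4 libraries, a replicate block and leaving out each library were the alternatives.

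The genes named are the 10, up to 4 called genes per partner list, the targeted gene, and the 5 genes most like the called member. Some genes of the lists are not reported here and are left out of the list counts. The members and lists were chosen with earlier results of these data known.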

Additional observations from a re-analysis of the deposited data

Results flagged for a closer look

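In 2 of 38 groups of 4 libraries, 1 library stood far from the other 3, where chance gives about 1 in 20. Scrambled replicate 4 held 395.6 CPM of Fubp1, and the other scrambled libraries 284 to 296 CPM. Without it the log2 fold change of Fubp1 was -0.28, against -0.39 with it. Scrambled replicate 1 held 17.38 CPM of Cbx7, and the other scrambled libraries 13.75 to 14.1 CPM. Without it the log2 fold change of Cbx7 was 0.24 (edgeR adjusted p = 0.283), against 0.17.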

How the results depend on the processing

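Of the 10 Polycomb genes 1 was called, and 0 were called with library totals alone (2 at an unadjusted p under 0.05), with no filter (2), with limma-voom (3) or with the replicate block (2). DESeq2 called 2, Jarid2 and Eed, and leaving out 1 library gave 0 to 1. Of the partner genes with opposing enzymes and targets 6 of 44 tested were called, 13.6% beside 15.3% of all genes. DESeq2 called 12, among 53 for which it gave a fold change, beside 23.1% of all genes. With the replicate block the count was 2 of 44. On leaving out 1 library it ran from 2 of 44 (without scrambled replicate 2) to 13 of 46 (without knockdown replicate 3). Over all genes 2062 of 13462 were called, against 3588 of 15518 with DESeq2 and 400 of 13462 with the replicate block. On leaving out 1 library the count ran from 526 of 13830 (without scrambled replicate 2) to 3425 of 13866 (without knockdown replicate 3). The replicate numbers are not said to pair the samples. Same-numbered libraries deviated from their group means with correlations from -0.56 to 0.02. No scrambled library correlated best with the knockdown library of its own number. These correlations cannot show whether donors or batches were shared. The log2 fold change of Ezh1, 0.04, ran from -0.078 to 0.083 on leaving out 1 library and was below 0 without scrambled replicate 4, knockdown replicate 3 or knockdown replicate 4. That of Suz12, 0.01, was -0.016 with no filter and ran from -0.063 to 0.063 on leaving out 1 library, below 0 in 5 of 8 cases. Both lay near 0 throughout. Jarid2, Eed, Cbx8 and the 6 called partners kept their direction in all 15 alternatives. On leaving out 1 library the log2 ratio difference of Ezh2 to Ezh1, -0.11, ran from -0.17 (without scrambled replicate 1) to -0.01 (without scrambled replicate 4), and that of Cbx7 to Cbx8, -0.33, from -0.49 (without scrambled replicate 2) to -0.16 (without knockdown replicate 1). With the replicate block, exact sign flips gave p = 0.5 and 0.375, where the smallest p they allow is 0.125. The causes were not tested. Intervals are widest for Cbx8 and Cbx7, which had the fewest counts.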
